A study of Mus musculus with 4 samples.

Results

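Complex I (NADH:ubiquinone oxidoreductase) is the entry point of NADH electrons into the mitochondrial respiratory chain. Its subunit genes and its assembly factor genes share the prefix Nduf, and they were taken here as every row of the authors' deposited comparison whose gene name begins with Nduf. This gave 44 of the 11536 genes in that table, and all 44 also passed the count filter that left 13281 genes for the test. They comprise 36 subunit genes of complex I (7 core and 29 accessory), 7 assembly factor genes (Ndufaf) and Ndufa4, whose product is now placed in complex IV. Only nuclear genes are included, on 16 chromosomes, with 2 members on the X chromosome.

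The RNA came from sorted DP thymocytes of C57BL/6 mice. DP (double-positive) cells carry both CD4 and CD8 and rearrange the alpha chain of their T cell receptor. The 2 knockout (KO) mice had the genotype Uqcrfs1fl/fl; CD4-Cre+, so that the floxed gene is deleted in cells in which the CD4 promoter of the transgene has been active. The 2 control mice carry the genotype label WT but are described in the series design as heterozygous littermates, and the sources used here give neither their CD4-Cre status nor the ages of the mice. With 2 mice in each group the spread rests on few animals, and fewer cells of a type and less RNA per cell cannot be told apart in such bulk libraries.

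As background, complex I oxidises NADH on its matrix arm, passes the electrons along a chain of iron-sulfur clusters to ubiquinone, and pumps protons through its membrane arm. The ubiquinol it makes is oxidised by complex III, whose Rieske iron-sulfur protein is encoded by Uqcrfs1, and both complexes also associate in supercomplexes. The nuclear core subunits carry the flavin, the clusters and the quinone site. The accessory subunits surround this core, and the Ndufaf proteins help to build the enzyme without being part of it. DP thymocytes are mostly small, non-dividing cells.

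The level of Uqcrfs1, in CPM (counts scaled to a common library size with TMM factors), was 61.4 and 57.2 in WT and 15.6 and 18.6 in KO. It fell by 1.80 on the log2 scale (SE 0.09, adjusted p = 0.000178 in edgeR's quasi-likelihood test). Libraries held 30408863 to 34080516 counts in genes. The DP markers Cd4, Cd8a, Cd8b1, Rag1, Rag2, Dntt and Cd1d1 all had counts and summed to 15440 to 16530 CPM per library. Markers of the preceding DN stage summed to 103 and 106 CPM in WT and to 132 and 176 CPM in KO, and myeloid markers to 12.1 and 11.8 CPM in WT, 11.0 CPM in KO replicate 1 and 21.8 CPM in KO replicate 2. Of 5 erythroid markers 2 had 0 counts in all libraries, and the 5 B cell markers summed to at most 2.27 CPM. Reads outside annotated exons made up 17.2% and 18.6% of uniquely aligned reads in WT and 20.6% and 19.9% in KO. WT replicate 1 stood apart for short transcripts and for cell cycle genes. A set of 10 cell cycle genes chosen with earlier results known summed to 4763 CPM there, against 4092 CPM in WT replicate 2, 4171 CPM in KO replicate 1 and 4348 CPM in KO replicate 2. The parts that these differences play in the results below were not tested, except where values without WT replicate 1 are given.

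Most complex I genes had slightly lower values in KO, and none passed the test over all genes. The log2 change was negative for 40 of 44 genes, against 50.1% of all tested genes, with a median of -0.11 against -0.0001 over all tested genes. That median corresponds to a change of -7.15%. In 22 of 44 genes both KO values lay under both WT values, against 20.1% of all tested genes, and in 0 genes both lay above, against 20.4%. At an unadjusted p under 0.05 in edgeR's quasi-likelihood test 7 genes were lower (4.01% of all tested genes) and 0 were higher (4.4%). At an adjusted p under 0.05 the count was 0, with 0.0226% of all tested genes called, also 0 in DESeq2 (0.181%) and 1 in edgeR's exact test (0.61%). Without a filter on low counts it was 2, Ndufa2 and Ndufb9 (0.911%). The gene of the exact test was Ndufa2 (adjusted p = 0.0108 in the exact test of edgeR). In the comparison of the authors' deposited table, 40 members were lower as well, 1 of them (Ndufa2) had an adjusted p under 0.05 (0.0101 there; 0.693% of genes in that table), and 0 were marked by the authors as changed (0.399%).

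One WT library stood above the other 3 libraries in most of these genes. Summed over the 44 genes, the level was 2341 CPM in WT replicate 1, 2183 in WT replicate 2, 2137 in KO replicate 1 and 2100 in KO replicate 2. WT replicate 1 was higher than WT replicate 2 in 40 of 44 genes, with a median log2 difference of 0.09, which is close in size to the difference between the groups. KO replicate 1 was higher than KO replicate 2 in 29 of 44 genes (median 0.03). KO replicate 2 lay under WT replicate 1 in 44 of 44 genes and under WT replicate 2 in 32 of 44, with medians of -0.17 and -0.05. KO replicate 1 lay under WT replicate 1 in 41 genes and under WT replicate 2 in 28, with medians of -0.14 and -0.03. Without WT replicate 1 the median log2 change over the members was -0.040, with 32 of 44 genes lower (49.7% of all genes in that fit) and 4 at an unadjusted p under 0.05 (4.12%). Without WT replicate 2 it was -0.16, with 4 genes called (2.65% of all genes in that fit): Ndufa2, Ndufb9, Ndufa4 and Ndufa13. Also without WT replicate 2, 41 genes were lower (49.6%) and 17 had an unadjusted p under 0.05 (9.61%). Without KO replicate 1, 42 genes were lower (50.6%), 5 of them at an unadjusted p under 0.05 (2.55%), and 0 were called (0.387%). Without KO replicate 2, 39 were lower (51.5%), 3 of them at an unadjusted p under 0.05 (1.97%), and 0 were called (0.322%). Without WT replicate 1, 0 were called (0.297%). A lone library in these fits is taken to vary as the pair in the other group does.

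**Figure D1:**
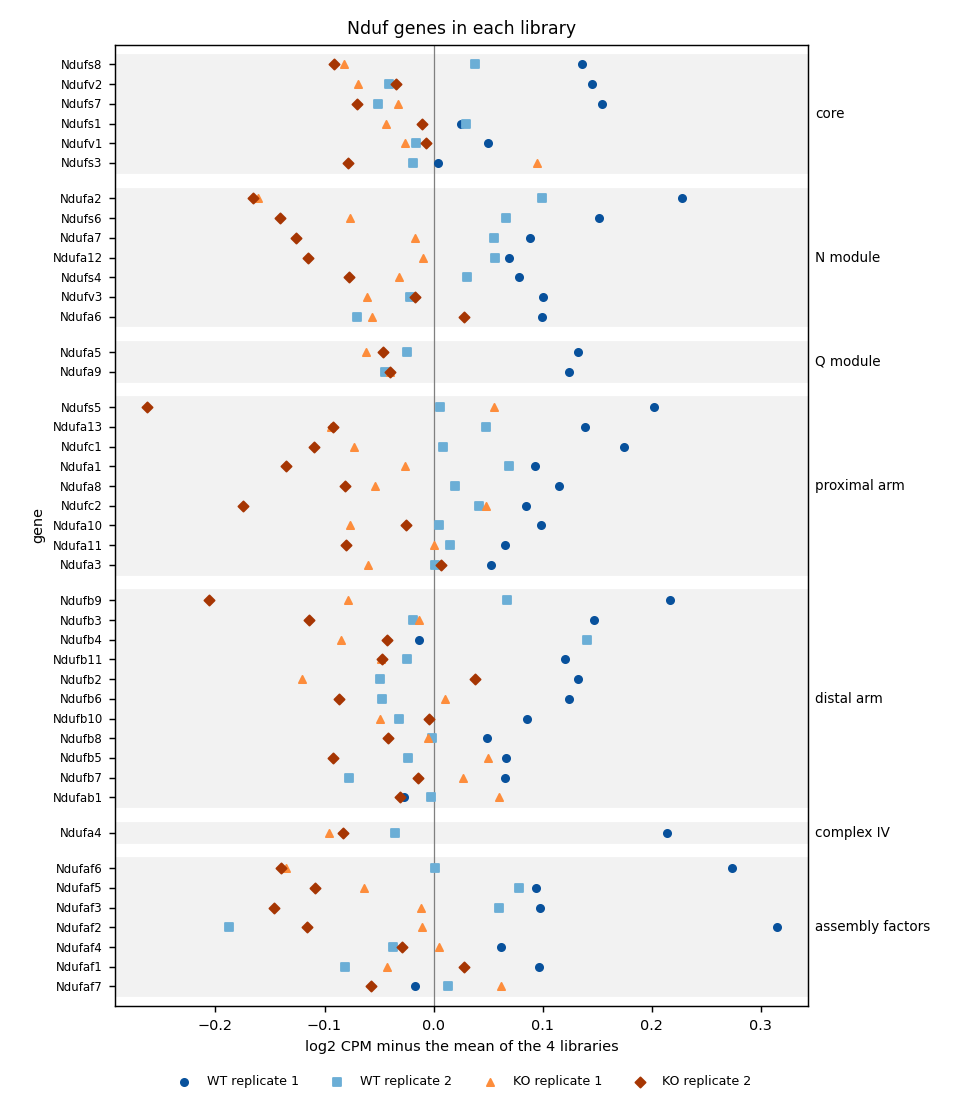
Level of Nduf genes in each library, as log2 CPM minus the mean of the 4 libraries (x axis), with genes on the y axis grouped by place in the enzyme and ordered by log2 change. Each symbol is 1 library. WT replicate 1 is the rightmost symbol in most rows, with KO replicate 2 under WT replicate 1 in every row drawn. The place of WT replicate 2 varies. In some rows, such as Ndufa2 and Ndufa12, it lies nearer to WT replicate 1 than to the KO libraries.

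Complex I transcripts are short, and short transcripts as a class had lower values in KO. The principal transcript is the longest one at a gene's best principal (APPRIS) level in GENCODE M21. Its median length was 994 bases for the members and 2951 bases for the tested genes that have one. Over all 826 tested genes with a principal transcript under 1000 bases the median log2 change was -0.08, 71.1% were lower, and at an unadjusted p under 0.05 in edgeR's quasi-likelihood test 93 were lower and 9 higher. Without WT replicate 1 that median was -0.04, with 510 lower. With all libraries, both KO values lay under both WT values in 289 of the 826 genes and above them in 70. Over all tested genes these shares were 20.1% and 20.4%. Over the 10685 genes of 1000 bases or more the median was 0.0013. Over 10 length classes of nearly equal size, the median ran from -0.08 in the shortest class to 0.07 in the longest, and in WT replicate 1 the median deviation of log2 CPM from the mean of the libraries ran the other way, from 0.08 to -0.08. In WT replicate 2 these deviations stayed between -0.007 and 0.01. From the shortest to the longest class they ran from -0.03 to 0.02 in KO replicate 1 and from -0.04 to 0.05 in KO replicate 2. Across 11511 genes Spearman's rho of log2 change and length was 0.309, and across the 44 members 0.331. Genes share their libraries, so these are descriptions without a test. GC content differed little, with a median of 0.507 for the members and 0.508 for all.

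Within the members, the 22 genes with a principal transcript under 1000 bases had a median log2 change of -0.13 (21 lower), and the 22 longer genes one of -0.08 (19 lower). The 27 members in the shortest class had a median of -0.12, beside -0.07 for the other genes of that class. The 8 members of the next class had a median of -0.12, beside -0.06. When each library's smooth trend on principal transcript length was taken up as an offset in the fit, the members' median became -0.041, with 30 of 44 genes lower (48.8% of all tested genes). At an unadjusted p under 0.05, 3 were then lower (3.13%), namely Ndufa2, Ndufb9 and Ndufa13, and 0 were called (0.0376%). With an offset on merged exon length instead, 39 were lower (49.5%), 4 of them at an unadjusted p under 0.05 (3.55%), and 0 were called (0.0376%). With the principal transcript offset and without WT replicate 1 the median was -0.0016, and 22 of 44 genes were lower. The trend was fitted over all tested genes that have a length, members included. It therefore takes up any group difference that goes with transcript length, and the source of such a difference was not tested.

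**Figure D2:**
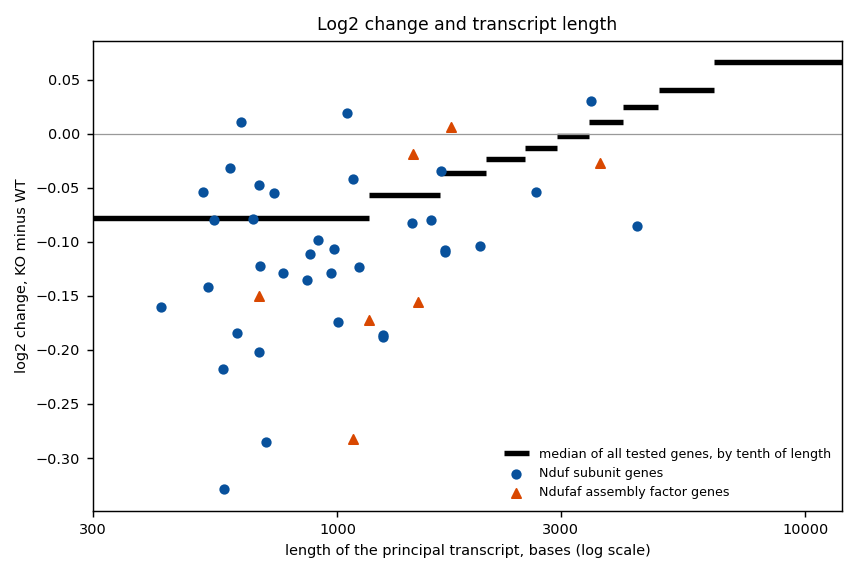
Log2 change from WT to KO (y axis) against the length of the principal transcript (x axis, log scale, with the outermost bars cut off at the ends of the axis). Black bars are medians of all tested genes in 10 length classes, rising from -0.08 to 0.07, circles are the subunit genes with Ndufa4 and triangles the 7 assembly factor genes. The 27 members in the shortest class have a median of -0.12, beside -0.07 for the other genes there.

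Promoter sequences were searched for the motifs named below, and 4 are shown that carry such motifs. Whether a motif has any part in the log2 changes was not tested. The searched windows run from 250 bases before to 50 bases after the transcription start, in RefSeq on GRCm38.p6, and were at hand for 39 of the 44 genes (41 promoters). Motifs were searched on both strands. The NRF1 motif (NRF1 is a factor known for nuclear genes of mitochondrial proteins) was found in 24.4% of member promoters, in 10.3% of the promoters of tested genes and in 4.6% of all promoters. AANATGGCG, a site of YY1, was found in 17.1%, 5.17% and 2.38% in the same order. CCGGAAGT, an ETS site as bound by GABPA, was found in 2.44%, 8.48% and 3.89%, and AAGGTCA, as bound by ERRA, in 7.32%, 3.3% and 4.72%. The 10 member promoters with an NRF1 motif include overlapping windows of Ndufa5 that hold the same match, so 9 of 39 genes held one. These 9 genes had a median log2 change of -0.13 and those without an NRF1 motif -0.10. For YY1 the values were -0.11 for 7 genes and -0.09 for the rest. The YY1 matches of Ndufc1, Ndufs7, Ndufa9, Ndufs6 and Ndufs4 begin at positions 23 to 36 from the start. Those of Ndufa7 and Ndufb11 lie before it. The motif holds the letters ATG, and whether these are start codons of the genes was not tested. The sequences below are printed 5′ to 3′ on the strand of the gene, with the motif matches in capitals.
Ndufs6 holds an NRF1 and a YY1 match and is one of the 7 genes lower at an unadjusted p under 0.05 (chr13:73328433-73328732, minus strand).
Ndufs6: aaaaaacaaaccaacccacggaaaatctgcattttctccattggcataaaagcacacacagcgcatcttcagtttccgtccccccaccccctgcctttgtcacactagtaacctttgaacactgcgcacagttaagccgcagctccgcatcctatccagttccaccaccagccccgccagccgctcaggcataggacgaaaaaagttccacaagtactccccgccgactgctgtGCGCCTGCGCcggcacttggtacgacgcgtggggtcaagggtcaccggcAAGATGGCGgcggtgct
Ndufa8, another of the 7, holds an NRF1 match beginning 30 bases before the start (chr2:36049289-36049588, minus strand).
Ndufa8: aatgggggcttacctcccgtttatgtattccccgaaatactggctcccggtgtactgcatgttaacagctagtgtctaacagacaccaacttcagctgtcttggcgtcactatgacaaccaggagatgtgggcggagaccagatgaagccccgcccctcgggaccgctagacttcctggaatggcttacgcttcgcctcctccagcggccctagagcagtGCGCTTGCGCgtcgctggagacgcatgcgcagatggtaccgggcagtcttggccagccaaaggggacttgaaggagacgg
Ndufb4 holds 3 NRF1 matches and 1 ERRA match (chr16:37654319-37654618, minus strand).
Ndufb4: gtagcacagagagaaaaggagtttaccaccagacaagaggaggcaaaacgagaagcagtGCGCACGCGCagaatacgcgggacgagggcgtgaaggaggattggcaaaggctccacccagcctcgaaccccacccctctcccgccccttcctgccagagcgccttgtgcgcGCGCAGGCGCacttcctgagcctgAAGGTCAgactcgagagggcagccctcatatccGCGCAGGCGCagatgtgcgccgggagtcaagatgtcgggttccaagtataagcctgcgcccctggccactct
Ndufs3, a core gene that was not lower, holds the only GABPA match among the members, at its start (chr2:90904672-90904971, minus strand).
Ndufs3: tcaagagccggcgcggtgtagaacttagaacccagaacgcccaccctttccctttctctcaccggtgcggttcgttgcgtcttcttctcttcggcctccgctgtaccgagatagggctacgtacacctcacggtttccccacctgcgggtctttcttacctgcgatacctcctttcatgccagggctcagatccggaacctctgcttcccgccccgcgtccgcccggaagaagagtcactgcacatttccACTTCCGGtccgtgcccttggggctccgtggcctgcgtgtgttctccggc
Of the same 7 genes, Ndufa13, Ndufa4 and Ndufs8 held no match, and no window was at hand for Ndufa2 and Ndufb9. A match describes letters in these windows only.

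The 7 nuclear core subunits, which carry the redox centres, showed a median of -0.05 in log2 change. Of them 6 of 7 were lower, and 2 had no overlap between the groups (20.1% of all tested genes). The median was -0.0095 without WT replicate 1 and -0.02 with the length offset. Ndufs8, which holds a pair of iron-sulfur clusters on the way to ubiquinone, stood at 66.8 and 62.4 CPM in WT and 57.4 and 57.1 CPM in KO. Both KO values lay under both WT values. Its log2 change was -0.17 (SE 0.06, unadjusted p = 0.0167, adjusted p = 0.528 in edgeR's quasi-likelihood test), and with the length offset -0.09 (SE 0.05). Ndufs8 lies on chromosome 19 from 3908870 to 3912717 in mm10.

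Ndufs7, whose cluster is the last before ubiquinone, stood at 52.3 and 45.4 CPM in WT and 46.0 and 44.8 CPM in KO. Ndufv2, a cluster protein of the NADH-oxidising tip, stood at 91.2 and 80.1 CPM in WT and 78.6 and 80.5 CPM in KO. In both genes only WT replicate 1 was apart, and the groups overlapped. Their log2 changes were -0.11 (SE 0.08) for Ndufs7 and -0.11 (SE 0.07) for Ndufv2, but -0.0038 and -0.015 without WT replicate 1.

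Ndufv1, which binds NADH and the flavin, stood at 92.6 and 88.5 CPM in WT and 87.8 and 89.0 CPM in KO (log2 change -0.03, SE 0.05). Ndufs1, the largest subunit, stood at 109.4 and 109.7 CPM in WT and 104.3 and 106.7 CPM in KO (-0.05, SE 0.05), and its groups did not overlap. Both changes lay within 2 standard errors of 0. Ndufs3, a structural subunit of the quinone arm, stood at 52.6 and 51.8 CPM in WT and 56.1 and 49.7 CPM in KO. Its KO values lay on either side of the WT values, and its log2 change was 0.02 (SE 0.07).

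Of the 29 accessory subunit genes 27 were lower, with a median log2 change of -0.11, and 16 had no overlap between the groups (20.1% of all tested genes). The median was -0.06 without WT replicate 1 (21 lower), -0.04 with the length offset (20 lower) and -0.01 with both (16 lower). By place in the enzyme the medians were -0.12 for the 7 genes of the N module (the NADH-oxidising tip), -0.10 for the 2 of the Q module (the quinone-binding base), -0.14 for the 9 of the proximal and -0.08 for the 11 of the distal membrane arm. The distal arm median was 0.0004 without WT replicate 1 and 0.01 with the length offset, while the N module stood at -0.12 and -0.05 and the proximal arm at -0.10 and -0.07. The Q module stood at -0.02 in each. Whether the groups of subunits differ from each other was not tested.

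Ndufa2, a small accessory protein of the N module with a thioredoxin-like fold, had the lowest p of all members. Its level was 47.6 and 43.6 CPM in WT and 36.38 and 36.25 CPM in KO. Both KO values lay well under both WT values and close to each other. The WT mean was 45.6 ± 2.86 CPM and the KO mean 36.3 ± 0.091 CPM (SD, n = 2 each), a log2 change of -0.33 (SE 0.07, or -20.4%). Its unadjusted p was 0.00101 and its adjusted p 0.327 in edgeR's quasi-likelihood test. Over left-out libraries the change ran from -0.40 to -0.27, and it was -0.24 (SE 0.06) with the length offset. Ndufa2 lies on chromosome 18 from 36742332 to 36744557 on the minus strand and overlaps 1 gene record with counts on the other strand. Such overlaps, which make a level uncertain where the strand setting is not known, also hold for Ndufa13, Ndufaf3, Ndufb2, Ndufs1, Ndufs3 and Ndufv2.

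Ndufb9, a LYR-motif protein of the distal membrane arm, stood at 57.8 and 52.1 CPM in WT and 47.1 and 43.1 CPM in KO. Its groups did not overlap, and KO replicate 2 was the lowest. The log2 change was -0.29 (SE 0.07, unadjusted p = 0.00402, adjusted p = 0.449 in edgeR's quasi-likelihood test), ran from -0.36 to -0.21 over left-out libraries and was -0.20 with the length offset. The gene lies on chromosome 15 from 58933810 to 58939489.

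Ndufa13 (GRIM-19), at the joint of the matrix and membrane arms, stood at 85.5 and 80.3 CPM in WT and 72.8 and 72.9 CPM in KO. The log2 change was -0.19 (SE 0.06), and -0.12 (SE 0.05) with the length offset. Ndufs6, a zinc-binding protein of the N module, stood at 37.9 and 35.7 CPM in WT and 32.3 and 30.9 CPM in KO (-0.22, SE 0.07). Ndufa8, a disulfide-containing protein of the intermembrane space, stood at 65.5 and 61.4 CPM in WT and 58.3 and 57.2 CPM in KO (-0.14, SE 0.06). In these 3 genes the KO libraries lay together under both WT libraries. With the length offset Ndufs6 stood at -0.13 and Ndufa8 at -0.05, and their unadjusted p values became 0.074 and 0.363.

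Ndufa4, named as a complex I subunit and since assigned to complex IV, stood at 100.8 and 84.8 CPM in WT and 81.3 and 82.0 CPM in KO. WT replicate 1 stood far above the other 3 libraries. The log2 change was -0.18 (SE 0.08), but -0.06 without WT replicate 1, against -0.31 when replicate 2 of WT was omitted.

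The members that were not lower lay close to 0. Ndufab1, the mitochondrial acyl carrier protein, stood at 41.4 and 42.1 CPM in WT and 43.95 and 41.3 CPM in KO (log2 change 0.03, SE 0.06). Ndufb7, an intermembrane space subunit of the distal arm, stood at 81.3 and 73.7 CPM in WT and 79.2 and 77.0 CPM in KO (0.01, SE 0.06). For both genes the KO values fell inside or beside the WT range, and with Ndufs3 and Ndufaf7 they complete the 4 members with a positive log2 change.

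**Figure D3:**
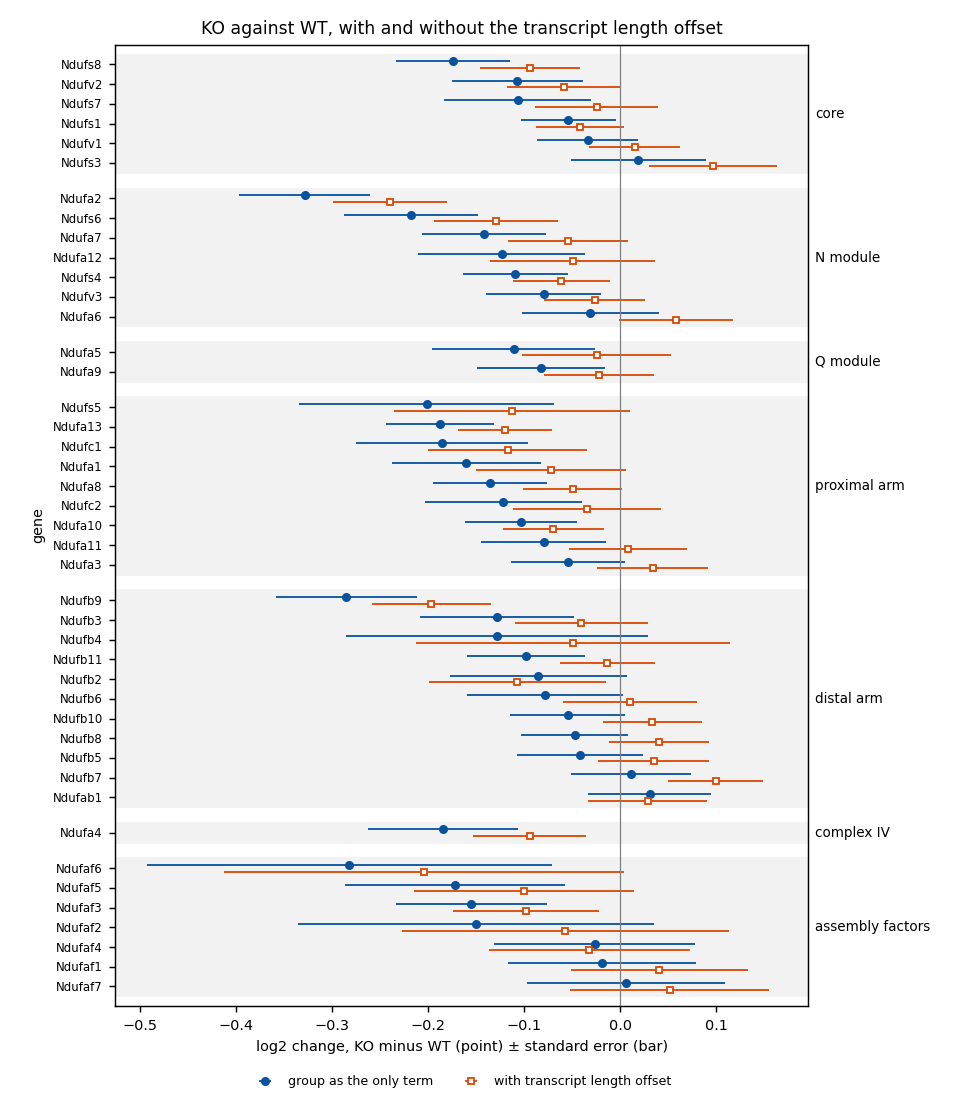
Log2 change from WT to KO (x axis) of Nduf genes (y axis), with bars for 1 standard error. Filled circles come from the fit with group as the only term and open squares from the fit with the transcript length offset. Most circles lie left of 0, and fewer of the squares do. With the offset Ndufa2 lies at -0.24 and Ndufb9 at -0.20.

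The transcript levels of the accessory subunits spanned a wide range. Per kilobase of principal transcript, the highest were Ndufb7 at 125, Ndufa3 at 105 and Ndufb10 at 99.9 CPM per kilobase, and the lowest Ndufb4 at 5.39, Ndufb2 at 6.2 and Ndufab1 at 12.1. The order depends on the gene model: over the merged exon length of the count table Ndufb7 ranked 21 among the 44 genes, not 2. The low values of Ndufb2 and Ndufab1 rest on principal transcripts taken at 4371 and 3479 bases. Ndufb4 stood at 5.18 and 5.76 CPM in WT and 4.93 and 5.07 CPM in KO, and since it has near-identical copies and reads with several alignments were not counted, its level is uncertain. Ndufb2 stood at 29.6 and 26.1 CPM in WT and 24.85 and 27.7 CPM in KO. Ndufa3, a short membrane subunit, stood at 56.1 and 54.1 CPM in WT and 51.8 and 54.3 CPM in KO. Ndufb10, a subunit of the distal membrane arm, stood at 77.6 and 71.5 CPM in WT and 70.7 and 72.9 CPM in KO. The groups overlapped in these genes except for Ndufb4, and their log2 changes lay between -0.13 and -0.05.

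The 7 assembly factor genes summed to 82.7 to 93.5 CPM per library. Their median log2 change was -0.15, with 6 of 7 lower and 3 without overlap between the groups (20.1% of all tested genes). At an unadjusted p under 0.05 in edgeR's quasi-likelihood test 0 were lower (4.01%). Without WT replicate 1 the median was -0.01 and with the length offset -0.06. Ndufaf3, which acts on the Q module, stood at 29.5 and 28.8 CPM in WT and 27.4 and 24.9 CPM in KO (log2 change -0.16, SE 0.08). Ndufaf5, which hydroxylates Ndufs7, stood at 9.72 and 9.62 CPM in WT and 8.71 and 8.45 CPM in KO (-0.17, SE 0.11). The groups did not overlap in either gene. The replicates of Ndufaf5 lay close, while the KO libraries of Ndufaf3 lay farther apart than its nearest WT and KO libraries.

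Ndufaf6, a factor of early assembly, stood at 3.78 and 3.13 CPM in WT and 2.85 and 2.84 CPM in KO (-0.28, SE 0.21). Ndufaf2, a relative of the subunit Ndufa12, stood at 7.65 and 5.40 CPM in WT and 6.10 and 5.67 CPM in KO (-0.15, SE 0.19). The WT libraries of Ndufaf2 lay on either side of both KO libraries, and its change was 0.12 without WT replicate 1. These were the least precise values of the group, at the lowest counts.

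Ndufaf1, part of the membrane arm assembly machinery, stood at 18.5 and 16.3 CPM in WT and 16.8 and 17.6 CPM in KO (-0.02, SE 0.10). Ndufaf4, the partner of Ndufaf3, stood at 12.1 and 11.3 CPM in WT and 11.6 and 11.3 CPM in KO (-0.03, SE 0.105). Ndufaf7, a methyltransferase of complex I assembly, stood at 12.25 and 12.5 CPM in WT and 12.9 and 11.9 CPM in KO (0.0061, SE 0.10). The groups overlapped in each of the 3.

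Complex I genes without an Nduf name were also mostly lower. Of a list of 15 such genes, mostly assembly factors, 14 were matched and tested, 13 were lower and the median log2 change was -0.07. At an unadjusted p under 0.05 in edgeR's quasi-likelihood test 2 were lower (4.01% of all tested genes) and 0 higher (4.4%), and at an adjusted p under 0.05 none passed. Tmem242, an assembly factor of the inner membrane, stood at 44.3 and 42.2 CPM in WT and 36.2 and 36.2 CPM in KO, with a log2 change of -0.26 (SE 0.06, adjusted p = 0.443). Lyrm2, a LYR-motif factor of the N module, stood at 24.2 and 23.1 CPM in WT and 20.4 and 19.4 CPM in KO (-0.25, SE 0.08, adjusted p = 0.526). Both genes lay lower in each KO library than in each WT library. Chchd4, which helps to import disulfide-containing subunits, was the exception at 0.05 (SE 0.13). Without WT replicate 1 the list's median was -0.07 with 10 of 14 lower, and with the length offset -0.04, also with 10 lower.

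The complex I genes of mitochondrial DNA had a median log2 change of -0.22 over the 5 tested, with 4 lower and mt-Nd6 higher. That median was -0.23 without WT replicate 1, and -0.16 with the length offset. Their summed levels were 4932 and 5035 CPM in WT and 4419 and 3976 CPM in KO, so WT replicate 1 was not the highest library there. For mt-Nd6 the levels were 13.74 and 10.08 CPM in WT and 19.36 and 13.77 CPM in KO. Its KO replicate 2 was thus nearly level with WT replicate 1. No counts fell on mt-Nd3 and mt-Nd4l in any library, while mt-Nd4 had 33478 to 42187 counts per library and mt-Nd6 306 to 660. Whether the way reads were prepared or counted left those genes without counts was not tested.

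The median log2 changes of other nuclear families of the same organelle were -0.11 for 8 tested complex III genes without Uqcrfs1, -0.14 for 12 complex IV genes including Ndufa4, -0.10 for 17 ATP synthase genes and -0.07 for 78 mitochondrial ribosomal protein genes. Without WT replicate 1 they were -0.06, -0.05, -0.04 and -0.06, beside -0.04 for the Nduf genes, and with the length offset -0.04, -0.05, -0.04 and -0.02. Both KO values lay under both WT values in 5, 8, 9 and 43 genes of these families, against 20.1% of all tested genes. Above them lay 0, 0, 0 and 5, against 20.4%. No difference between these families and the Nduf genes was tested, and they share the same libraries.

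**Figure D4:**
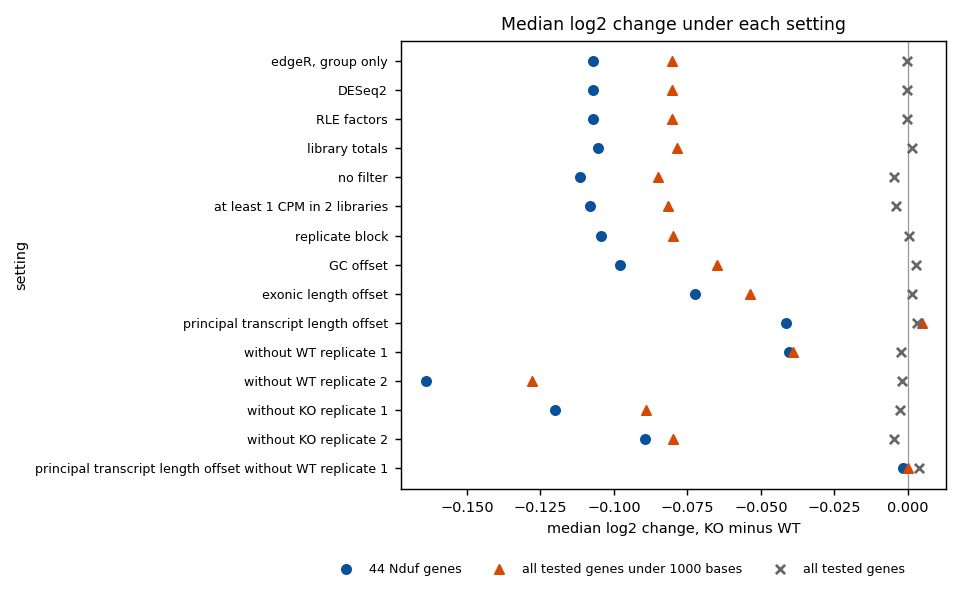
Median log2 change (x axis) of the 44 Nduf genes (circles), of all tested genes with a principal transcript under 1000 bases (triangles) and of all tested genes (crosses) under each setting of the fit (y axis). The Nduf median lies at -0.11 with group as the only term and at -0.041, -0.040 and -0.0016 with the length offset, without WT replicate 1 and with both.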

How the data were processed

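The series holds 4 libraries, 2 per group, grouped and numbered by the sample titles. The authors deposited raw counts per Ensembl gene. Per the submitters' processing notes and design text, the tools were Trimmomatic 0.33, STAR 2.5.2 (alignment, mm10) and HTSeq (counting). The sources used here give no HTSeq mode, strand setting or annotation release. Without a strand setting, reads of overlapping genes on opposite strands cannot be told apart: 11 members overlap a gene record with counts on the other strand, among them Ndufa2, Ndufa13, Ndufaf3, Ndufb2, Ndufs1, Ndufs3 and Ndufv2, whose values are uncertain for this reason. With overlaps on either strand it is 13 members, and the 31 others gave 28 lower genes and a median log2 change of -0.11. The series table and the library files held the same counts (0 differing cells over 43430 genes). The authors' deposited comparison by edgeR holds CPM per library (counts over the library total), log2 fold changes, a likelihood ratio score, p-values and adjusted p-values. It covers the 11536 genes with at least 1 CPM in at least 2 libraries. HTSeq's summary lines (reads outside exons, ambiguous, multiply aligned) did not enter the library sizes.

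The comparison was fitted on all genes with edgeR 4.0.16 (R 4.3.3, limma 3.58.1): filterByExpr with a minimum count of 10, TMM factors, robust quasi-likelihood F test, group as the only term, Benjamini-Hochberg adjustment and a threshold of 0.05. The fit was tested on simulated counts. These held no trend on transcript length and no library set apart, so that test covers neither. A standard error is the absolute log2 change over the square root of F. Library differences use log2(CPM + 0.5). DESeq2 1.42.0 and edgeR's exact test were alternatives. Length offsets were loess trends (span 0.3) of each library on merged exon length or principal transcript length, and the second was chosen after seeing the data. The members, lists and tests were chosen with earlier results of these data known. Genes given in every library were the core subunits, the assembly factors, members with an unadjusted p under 0.05 or a positive log2 change, the 3 highest and 3 lowest accessory subunits per length, and Ndufa4. Some single genes that these rules name are not reported here, though counts and medians over the members include them.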

Additional observations from a re-analysis of the deposited data

How the results depend on the processing

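Precision is limited by 2 mice per group. Over all genes the count of calls was 3, against 24 with DESeq2, 81 with the exact test, 191 with no filter, 5 with the exonic length offset, 5 with the principal transcript length offset and 41 to 365 over left-out libraries. Among the members it was 0, against 1 with the exact test, 2 with no filter and 0 to 4 over left-out libraries, where the 4 came without WT replicate 2. The 7 members lower at an unadjusted p under 0.05 became 4 with the exonic and 3 with the principal length offset, and 3 to 17 over left-out libraries. The 22 without overlap became 22 to 41 over left-out libraries, where overlap is avoided more easily by construction (32.8% to 38.5% of all tested genes), and have no value under the offsets. The members' median ran from -0.1641 to -0.0403 over left-out libraries, was -0.0413 with the principal length offset, and with both -0.0595 without WT replicate 2, -0.0398 without KO replicate 1, -0.0193 without KO replicate 2 and -0.0016 without WT replicate 1. The assembly factors' median ran from -0.1968 to -0.0135 over left-out libraries and was -0.0574 with the principal length offset. The other complex I genes' median was -0.0498 with the exonic and -0.041 with the principal length offset, and -0.0773 to -0.0688 over left-out libraries. The cause of these shifts was not tested.

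Replicate numbers are shared between the groups, and whether they pair the samples is not known. The deviations of same-numbered libraries correlated at 0.0912, and only 2 pairs cannot decide it. With the replicate block 27 genes were called over all genes. With the block and the exonic length offset 163 of the 13281 tested genes were called, 1 of them a member, and the other complex I genes' median was -0.0494.

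Some single genes changed sign. With the GC offset Ndufaf7 was at -0.0108 and Ndufv1 at 0.0013. With the principal length offset Ndufa3 was at 0.0338, Ndufaf1 at 0.0406, Ndufb10 at 0.0333 and Ndufv1 at 0.0151. Over left-out libraries Ndufab1 ran from -0.0184 to 0.0735, Ndufaf1 from -0.1093 to 0.0700, Ndufaf2 from -0.3807 to 0.121, Ndufaf4 from -0.0793 to 0.0201, Ndufaf7 from -0.0574 to 0.0624, Ndufb10 from -0.1165 to 0.0013, Ndufb2 from -0.1768 to 0.0047, Ndufb7 from -0.063 to 0.0802 and Ndufs3 from -0.0735 to 0.101.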

Other observations

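Ndufaf8, listed under a clone name in the authors' table and so outside the name rule, was at 9.26 and 8.73 CPM in WT and 6.98 and 8.7 CPM in KO, with a log2 change of -0.20 (SE 0.14). Of the other Nduf-named records outside that table, Ndufa4l2 had 0 counts in every library, and Ndufa11b, Ndufb4c, Ndufs6b and Ndufab1-ps each had 0 to 3 counts per library.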
